A study of Mus musculus with 10 samples.

Results

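Cathepsins are the lysosomal peptidases, and 9 of their genes are described here across drug-treated mouse tumours. The members are Ctsb, Ctsl, Ctss, Ctsz, Ctsc, Ctsh and Ctsk, which encode cysteine peptidases, Ctsd, which encodes an aspartic peptidase, and Ctsa, which encodes a serine carboxypeptidase. They are 9 of the 52324 gene symbols of the table and were chosen by symbol with their FPKM levels in all 10 libraries in view, so those values are given as a description and without a test. Each library was made from a tumour grown under the skin by 4T1 cells, a mammary carcinoma line of the mouse, and collected on day 14. The free form of the drug gave the groups Free-MK1775 and Free-MK1775+NLG919, and the other form gave Lipo-MK1775 and Lipo-MK1775+NLG; the negative control, which the design text calls PBS, is the fifth group, and each of the 5 has 2 libraries. MK1775 inhibits the cell cycle kinase WEE1, and NLG919 acts on the IDO1 pathway of tryptophan breakdown. The design text writes the fourth treatment as Lipo-MK1775+NLG919, so NLG is read as NLG919. The sources used here do not state doses, what the Free and Lipo forms contain, or whether a group's libraries are from different mice. P-values therefore reflect the variation among these libraries, which may be technical.

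Cathepsins are made as inactive precursors, carried to the lysosome by mannose 6-phosphate receptors and activated there at acid pH, where they cut proteins taken up or made by the cell. Cystatins and stefins inhibit the cysteine members. Macrophages and other myeloid cells are rich in cathepsins, as are many carcinoma cells, and Ctsk is best known as the collagen-cutting enzyme of osteoclasts. The transcription factors of the MiT/TFE family, among them TFEB and TFE3, bind an E-box whose core is CACGTG near many lysosomal genes.

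The stretches before the start sites are shown for 4 members, because they differ in that core. RefSeq promoters on build GRCm38.p6 were found for 7 of the 9 members (Ctsa, Ctsc, Ctsd, Ctsk, Ctsl, Ctss and Ctsz). The 6 letters were searched in the 250 bases before each start; CACGTG reads the same on both strands. They occurred in 6.02% of all 32851 promoters of that length. Each stretch runs 5′ to 3′ along the gene, with the core in capitals, and the names give the region and strand.
Ctsa, chr2:164833693-164833772, plus strand: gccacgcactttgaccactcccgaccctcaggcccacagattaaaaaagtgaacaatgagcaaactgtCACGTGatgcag
Ctsd, chr7:142387900-142388077, minus strand: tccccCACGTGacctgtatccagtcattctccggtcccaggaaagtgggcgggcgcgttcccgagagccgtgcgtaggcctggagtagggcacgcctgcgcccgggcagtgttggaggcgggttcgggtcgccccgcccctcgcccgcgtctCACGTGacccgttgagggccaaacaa
Ctsl, chr13:64370731-64370770, minus strand: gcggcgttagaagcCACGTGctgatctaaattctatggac
Ctsk, chr3:95499090-95499209, plus strand: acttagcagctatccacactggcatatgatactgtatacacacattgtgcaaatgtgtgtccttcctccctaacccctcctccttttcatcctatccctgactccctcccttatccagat
The core began 12 bases before the start of one Ctsa promoter, 245 and 98 bases before that of Ctsd and 236 bases before that of Ctsl. It was not in the window of Ctsk, nor in those of Ctsc, Ctss, Ctsz or the second Ctsa promoter, which lies upstream of the one shown. Ctsa transcripts with much of the signal, such as ENSMUST00000103093, start at the upstream end of the gene (164674793 on GRCm39). The 2 Ctsa promoters were not matched to these transcripts across builds. A match describes letters and not a bound site.

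The unit below is nuclear TPM, the deposited FPKM (fragments scaled by transcript length and by the mapped fragments of the library) of a gene's named transcripts, rescaled so that all transcripts outside the mitochondrial genome sum to 1000000 in each library. The rescaling was needed because 3 libraries stood apart. Mitochondrial transcripts made up 47.35% of summed FPKM in Free-MK1775+NLG919 replicate 2 and 64.13% and 55.99% in the Lipo-MK1775 pair, against 2.88% to 4.82% in the other 7. Ribosomal protein genes held 22.25% to 24.93% of the nuclear sum in those 3 and 13.02% to 15.61% in the others. The Lipo-MK1775 treatment and the high share cannot be told apart, since neither library of that group lacks it. Depth, known in relative terms, was 1.96 times as high in negative control replicate 1 as in Lipo-MK1775 replicate 1, the shallowest. The labels call the cells cancer cells. The libraries also held all 13 macrophage markers at 1 nuclear TPM or more in every library, with sums of 2986 to 7146 nuclear TPM, against 943.0 to 1901 for 8 markers of carcinoma epithelium. In such whole tumours, fewer cells of a type and less RNA per cell cannot be told apart.

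The 9 genes together held 0.477% to 0.499% of the nuclear sum in Free-MK1775, 0.261% to 0.532% in Free-MK1775+NLG919, 0.402% to 0.41% in Lipo-MK1775 and 0.457% to 0.522% in Lipo-MK1775+NLG, against 0.417% to 0.431% in the negative control. Both libraries of Free-MK1775 and of Lipo-MK1775+NLG lay above both control libraries, both of Lipo-MK1775 lay below them, and the Free-MK1775+NLG919 pair lay on either side. On this scale, which is per transcript length, Ctsl had the highest mean level over the 10 libraries, 879 nuclear TPM. It was followed by Ctss (794), Ctsb (711), Ctsz (624), Ctsd (587), Ctsc (421), Ctsa (159), Ctsh (147) and Ctsk (86.3). Free-MK1775+NLG919 replicate 2 was the lowest of the 10 libraries for Ctsa, Ctsb, Ctsc, Ctsd, Ctsk, Ctss and Ctsz.

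**Figure D1:**
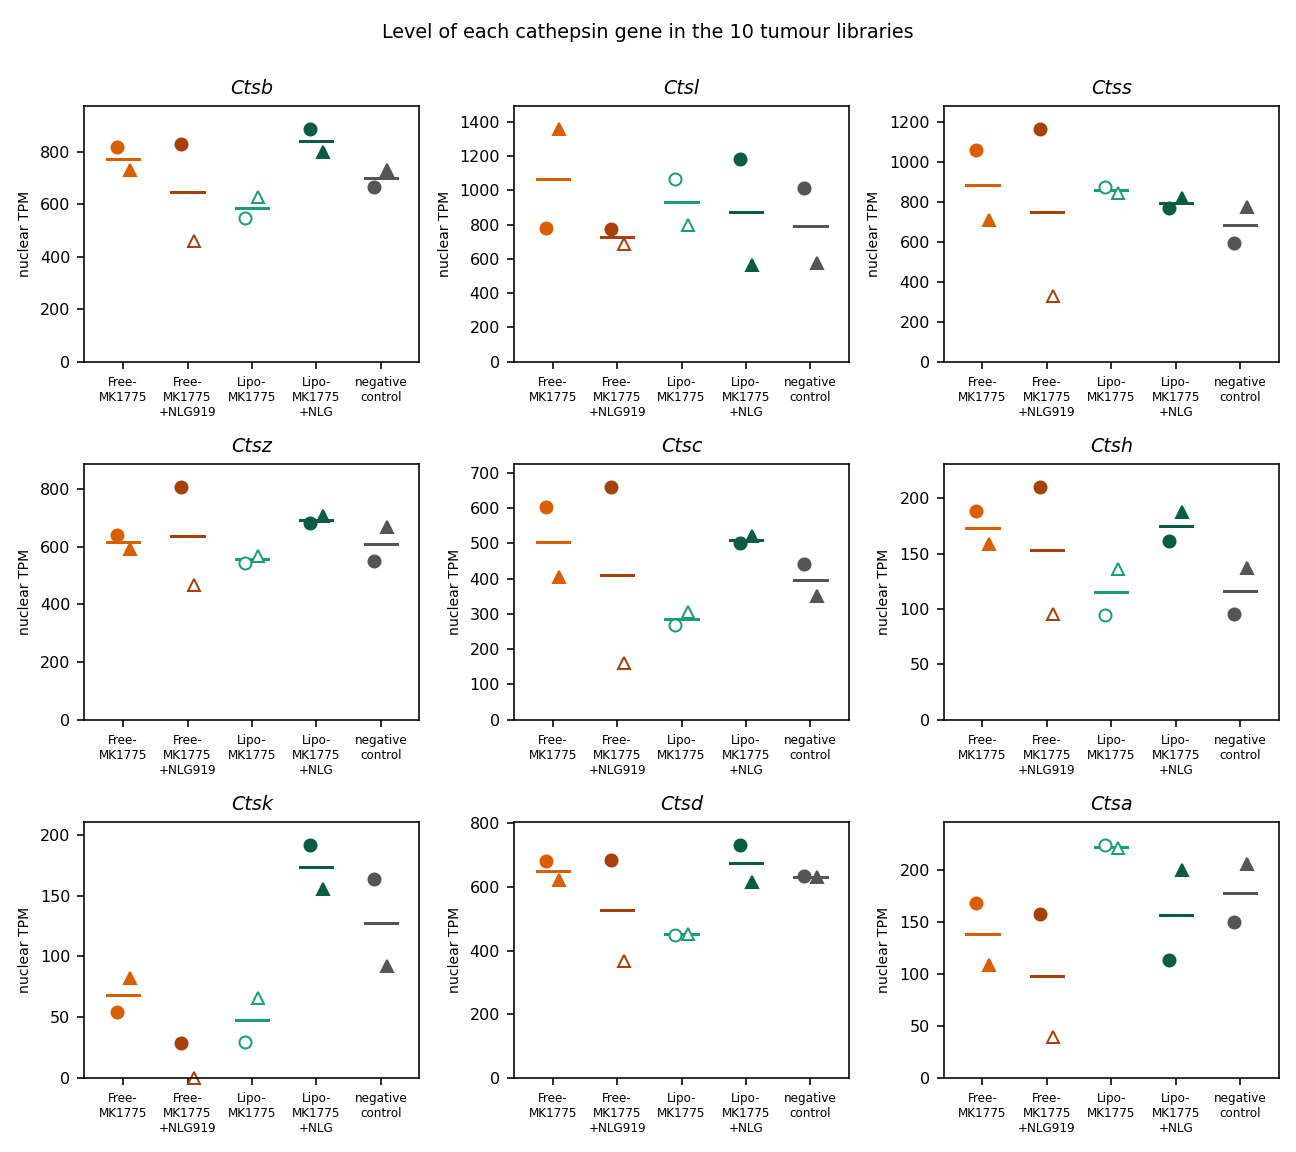
Nuclear TPM of each cathepsin gene (vertical axis, linear, from 0) in the 2 libraries of each group; circles are replicate 1, triangles replicate 2, bars the mean of a pair, and open symbols the 3 libraries of high mitochondrial share. No mean is drawn for Ctsk in Free-MK1775+NLG919, where 1 library is listed at 0. The open triangle of Free-MK1775+NLG919 is the lowest symbol of 7 of the 9 panels, and Ctsk has the widest spread between groups.

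Ctsb (MSTRG.8095, chr14:63359911-63383372 on GRCm39), which encodes an enzyme that cuts both within proteins and from their end, varied little. It had 819 and 730.1 nuclear TPM in Free-MK1775, 832 and 462 in Free-MK1775+NLG919, 547.5 and 627 in Lipo-MK1775, 888 and 799 in Lipo-MK1775+NLG, against 668 and 733 in the negative control. Both Lipo-MK1775+NLG libraries lay above the control pair and both Lipo-MK1775 libraries below it, while the other groups overlapped with it. Its log2 change, on log2(nuclear TPM + 1) as throughout, was 0.14 (SE 0.28) for Free-MK1775, -0.17 (SE 0.28) for Free-MK1775+NLG919, -0.26 (SE 0.28) for Lipo-MK1775 and 0.27 (SE 0.28) for Lipo-MK1775+NLG.

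Ctsz (chr2:174269286-174280832) encodes cathepsin X, a carboxypeptidase, and had the narrowest range of the 9, 1.73-fold from lowest to highest library. It had 642 and 593 nuclear TPM in Free-MK1775, 808 and 468 in Free-MK1775+NLG919, 545.5 and 569.6 in Lipo-MK1775, 683 and 707 in Lipo-MK1775+NLG, against 551 and 668.5 in the negative control. Only the Lipo-MK1775+NLG pair was clear of the control pair, on the higher side, with a log2 change of 0.19 (SE 0.26); the changes of the other groups lay between -0.12 and 0.02. Ctsz overlaps Nelfcd, a gene on the other strand, at up to 12.5 FPKM, and the strand setting of the counting is not stated.

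Ctsl (chr13:64507151-64518704), the gene of a strong endopeptidase, differed as much within groups as between them. Its named transcripts had 778 and 1359 nuclear TPM in Free-MK1775, 774 and 687 in Free-MK1775+NLG919, 1064 and 796 in Lipo-MK1775, 1182 and 566 in Lipo-MK1775+NLG, against 1011 and 575 in the negative control. The libraries of every treated group overlapped with the control pair or enclosed it. Assembled transcripts without a symbol held up to 57.0% of the signal at this locus, and with them added it had 1353 and 1823 nuclear TPM in Free-MK1775, 1118 and 915 in Free-MK1775+NLG919, 1064 and 964 in Lipo-MK1775, 1871 and 1200 in Lipo-MK1775+NLG, against 1372 and 1337 in the negative control. On the whole locus both Free-MK1775+NLG919 libraries and both Lipo-MK1775 libraries lay below the control pair. The log2 change in Lipo-MK1775 had a different sign by the sum taken, 0.27 (SE 0.42) for named transcripts and -0.42 (SE 0.26) for the whole locus.

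Ctss, Ctsc and Ctsh are the members best known from immune cells. Ctss (chr3:95434097-95463714) encodes the endopeptidase that trims the invariant chain of MHC class II in antigen-presenting cells. It had 1058 and 710.0 nuclear TPM in Free-MK1775, 1166 and 330.5 in Free-MK1775+NLG919, 877 and 844 in Lipo-MK1775, 768 and 821 in Lipo-MK1775+NLG, against 593 and 775 in the negative control. The Lipo-MK1775 pair lay above both controls, and the Free-MK1775+NLG919 pair held the highest and the lowest value of the 10 libraries. Its log2 change was 0.35 (SE 0.49) for Free-MK1775, -0.13 (SE 0.49) for Free-MK1775+NLG919, 0.34 (SE 0.49) for Lipo-MK1775 and 0.23 (SE 0.49) for Lipo-MK1775+NLG.

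Ctsc (chr7:87927293-87960096) encodes dipeptidyl peptidase I, which activates the serine proteases of neutrophil, mast cell and cytotoxic granules. It had 602 and 404 nuclear TPM in Free-MK1775, 659.5 and 161 in Free-MK1775+NLG919, 269 and 304 in Lipo-MK1775, 499 and 519.7 in Lipo-MK1775+NLG, against 440.3 and 351 in the negative control. Both Lipo-MK1775+NLG libraries were above the control pair and both Lipo-MK1775 libraries below it, with log2 changes of 0.37 (SE 0.54) and -0.46 (SE 0.54). Ctsh (chr9:89936205-89958142) encodes an aminopeptidase that is abundant in lung and macrophages. It had 188 and 159 nuclear TPM in Free-MK1775, 210.2 and 95.6 in Free-MK1775+NLG919, 94.5 and 136 in Lipo-MK1775, 162 and 188 in Lipo-MK1775+NLG, against 95.65 and 137 in the negative control. Both libraries of Free-MK1775 and of Lipo-MK1775+NLG lay above both controls, with log2 changes of 0.59 (SE 0.38) and 0.60 (SE 0.38). In negative control replicate 1, 38.3% of the signal at the Ctsh locus was on assembled transcripts. With them added the changes were 0.24 (SE 0.33) and 0.29 (SE 0.33), and the lower Free-MK1775 library, 159 nuclear TPM, stood close to that control library, at 155 nuclear TPM. On that sum the Lipo-MK1775 pair lay below both controls, with a log2 change of -0.36 (SE 0.33).

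The summed level of the 13 macrophage markers was 3810 to 5806 in Free-MK1775, 2986 to 7146 in Free-MK1775+NLG919, 3467 to 3618 in Lipo-MK1775, 5052 to 5138 in Lipo-MK1775+NLG and 3028 to 4062 in the negative control. That of 10 dendritic and B cell markers, among them MHC class II genes, was 2484 to 4775 in Free-MK1775, 445 to 6422 in Free-MK1775+NLG919, 3052 to 3251 in Lipo-MK1775, 2539 to 3014 in Lipo-MK1775+NLG and 2310 to 2436 in the negative control. The Free-MK1775+NLG919 pair was the widest in both lists, as it was for 7 of the 9 members (all but Ctsk and Ctsl), and the Lipo-MK1775+NLG pair lay above the control pair in both. Their part in the cathepsin values was not tested.

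Ctsk (chr3:95406567-95416693) spread more over the libraries than the other members: its mean absolute deviation from its own mean was 1.445 log2 units, against 0.522 for Ctsa, the next, and 0.181 for Ctsz, the least. With assembled transcripts added it was 1.103, followed by Ctsc (0.471), and Ctsa had the least, 0.041. Over the 7 libraries of low mitochondrial share it was 0.742, followed by Ctsl (0.402). Its 1 annotated transcript, of 8 exons and 1532 bases, had 54.3 and 82.5 nuclear TPM in Free-MK1775, 28.4 and 0 in Free-MK1775+NLG919, 29.9 and 66.1 in Lipo-MK1775, 192 and 155 in Lipo-MK1775+NLG, against 163 and 91.7 in the negative control. Both libraries of Free-MK1775, of Free-MK1775+NLG919 and of Lipo-MK1775 lay below both controls. The Lipo-MK1775+NLG pair overlapped with the control pair and lay above all the other treated libraries. In order of level, Lipo-MK1775+NLG came first and then the negative control, which overlapped. Free-MK1775 stood below the control without overlap, and Lipo-MK1775 overlapped with Free-MK1775. Free-MK1775+NLG919 came last, with 28.4 nuclear TPM in its higher library against 29.9 in the lower Lipo-MK1775 library.

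The log2 change of Ctsk was -0.86 (SE 1.24) for Free-MK1775, -1.44 (SE 1.24) for Lipo-MK1775 and 0.49 (SE 1.24) for Lipo-MK1775+NLG. For Free-MK1775+NLG919 the fitted value, -4.51 (SE 1.24), depends on the pseudocount of 1, since replicate 2 is listed at 0. Without that library it was -2.07. Over every scaling, pseudocount, filter and left-out library run, the change ran -1.27 to -0.45 in Free-MK1775, -6.95 to -2.07 in Free-MK1775+NLG919, -2.0 to -0.57 in Lipo-MK1775 and 0.08 to 0.90 in Lipo-MK1775+NLG. So the sign was the same in all of these fits for each of the 4 groups. Fits that left out a library of another group could not change it.

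The transcripts at the Ctsk locus were not used evenly. The annotated transcript, ENSMUST00000015664, had 19.0 and 26.2 FPKM in Free-MK1775, 10.5 and 0 in Free-MK1775+NLG919, 6.07 and 17.7 in Lipo-MK1775 and 63.0 and 53.0 in Lipo-MK1775+NLG, against 51.0 and 30.0 in the negative control. There were 4 assembled transcripts at the locus. One of them, with 9 exons and an earlier start (95406208, against 95406567 for the annotated one), had 1.79 and 1.55 FPKM in Free-MK1775+NLG919 and at most 0.18 FPKM in the other 8 libraries. With it added, Free-MK1775+NLG919 replicate 2 had 4.99 nuclear TPM, all of it on the assembled transcript. The whole-locus log2 change of Free-MK1775+NLG919 was -3.12 (SE 0.71).

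Ctsk was set beside 9 osteoclast marker genes. Acp5, which encodes the tartrate-resistant acid phosphatase, had 143 and 158 nuclear TPM in Free-MK1775, 119 and 52.7 in Free-MK1775+NLG919, 93.0 and 140.0 in Lipo-MK1775, 386 and 314 in Lipo-MK1775+NLG, against 291 and 176 in the negative control. Mmp9, the gelatinase gene that neutrophils and macrophages also use, had 183 and 182 nuclear TPM in Free-MK1775, 130.0 and 112 in Free-MK1775+NLG919, 124 and 119 in Lipo-MK1775, 329 and 348 in Lipo-MK1775+NLG, against 292 and 230.0 in the negative control. For both genes the libraries of Free-MK1775, Free-MK1775+NLG919 and Lipo-MK1775 lay below both controls and those of Lipo-MK1775+NLG above them. Ocstamp, which encodes a membrane protein needed for osteoclast fusion, had 8.22 and 7.15 nuclear TPM in Free-MK1775, 4.94 and 1.63 in Free-MK1775+NLG919, 0.385 and 1.53 in Lipo-MK1775, 12.9 and 11.8 in Lipo-MK1775+NLG, against 10.9 and 5.28 in the negative control. Its Lipo-MK1775 and Free-MK1775+NLG919 pairs lay below both controls, and its Free-MK1775 pair lay between them. Without overlap, 1 of the 9 markers was higher and 7 lower in Free-MK1775 (all genes, 13.1% and 20.2%). The counts were 1 and 8 in Free-MK1775+NLG919 (9.87% and 40.7%) and 0 and 8 in Lipo-MK1775 (8.4% and 67.2%). In Lipo-MK1775+NLG they were 6 and 1 (20.7% and 23.4%). These counts include Calcr, which was at most 0.393 nuclear TPM and did not pass the filter that the genes behind the percentages passed. It is among the lower in Free-MK1775, Free-MK1775+NLG919 and Lipo-MK1775 and among the higher in Lipo-MK1775+NLG. Tnfrsf11a was the higher one in both Free groups, with 3.60 to 8.15 nuclear TPM against 2.15 and 2.22 in the negative control. Itgb3 was the lower one in Lipo-MK1775+NLG, with 4.20 and 18.0 against 28.7 and 19.9. By limma, 5 of the 8 tested genes of the list fell in Lipo-MK1775 (Itgb3, Mmp9, Nfatc1, Ocstamp and Oscar), where 19.4% of all genes were called lower and 1.62% higher, and 0 were called in the other 3 comparisons. The count of 5 rested on the library set: it was 6 without either Free-MK1775+NLG919 library, 1 without either Free-MK1775 library and 0 without any 1 library of Lipo-MK1775, Lipo-MK1775+NLG or the negative control. It was 1 with no filter on low values. In Free-MK1775+NLG919 the count also moved without its replicate 1, which left the library of high mitochondrial share alone. In Lipo-MK1775 and Free-MK1775+NLG919 the calls over all genes ranged widely with the library left out. Nothing about the osteoclast list is therefore read from these counts. The largest adjusted p of the 5 was 0.0469, for Itgb3. Under median-of-ratios scaling 0 of the 5 passed. Their log2 changes ran from -1.67 for Ocstamp to -0.21 for Mmp9, with limma adjusted p from 0.0657 to 0.556. On that scale the Lipo-MK1775 change of Acp5 was -0.10 (SE 0.28), against -0.98 (SE 0.41) in nuclear TPM. The Ctsk values of the Lipo-MK1775 pair overlapped with the controls there, with a log2 change of -0.57 (SE 1.26).

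The summed level of the 9 osteoclast markers was 366 to 393 in Free-MK1775, 181.5 to 284 in Free-MK1775+NLG919, 236 to 282 in Lipo-MK1775, 734 to 777 in Lipo-MK1775+NLG and 466.5 to 679.5 in the negative control. Acp5 and Mmp9 made up most of this sum in every library, so it says little about the other markers. Calcr, the calcitonin receptor gene that defines the mature cell, was at most 0.393 nuclear TPM and at 0 in 3 libraries (both of Free-MK1775+NLG919 and Lipo-MK1775 replicate 1). The sum of 6 osteoblast markers was 53.4 to 59.7 in Free-MK1775, 21.1 to 41.3 in Free-MK1775+NLG919, 11.1 to 25.3 in Lipo-MK1775, 46.2 to 46.7 in Lipo-MK1775+NLG and 36.8 to 41.35 in the negative control. That of 10 fibroblast markers, a further cell type known to use Ctsk, was 519.6 to 702 in Free-MK1775, 203 to 595 in Free-MK1775+NLG919, 411 to 842 in Lipo-MK1775, 347 to 459.5 in Lipo-MK1775+NLG and 571 to 679 in the negative control. This sum was lower in both Lipo-MK1775+NLG libraries than in both controls. There 7 of the 10 markers were lower without overlap, 2 (Pdgfra and Pdgfrb) were higher and 1 (Lum) overlapped. Of all genes, 23.4% were lower and 20.7% higher without overlap in that group. The sum of 10 neutrophil markers was 831 to 1442 in Free-MK1775, 1047 to 1900 in Free-MK1775+NLG919 and 551 to 1971 in Lipo-MK1775. It was 1874 to 2379 in Lipo-MK1775+NLG and 998.5 to 1405 in the negative control. In Lipo-MK1775+NLG 9 of the 10 were higher without overlap, where 20.7% of all genes were. The part of these cell types in the Ctsk and Mmp9 values was not tested.

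**Figure D2:**
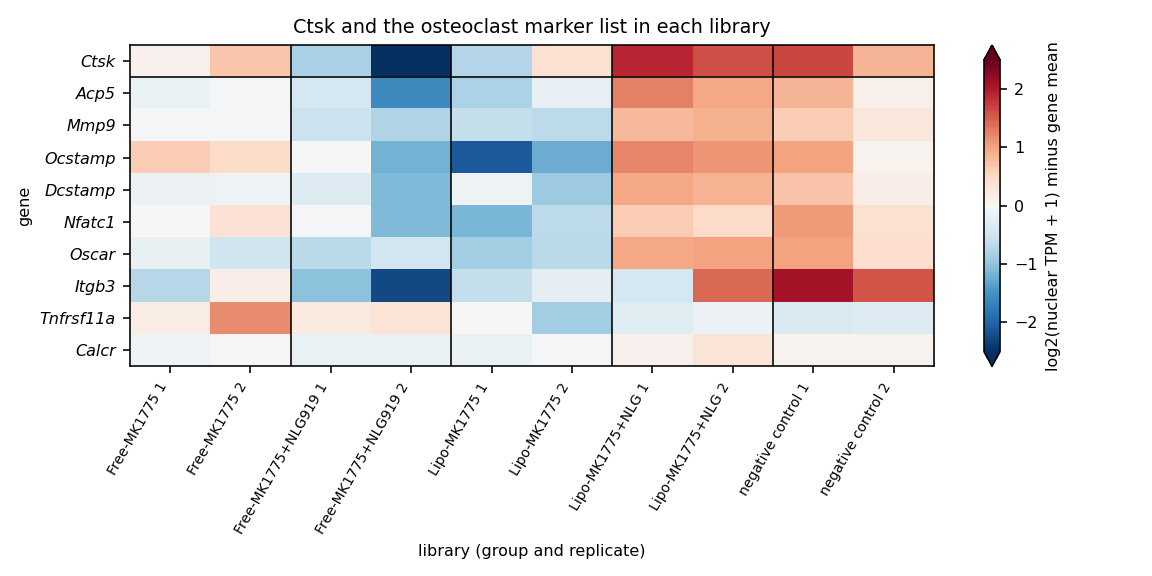
log2(nuclear TPM + 1) of Ctsk and of the 9 osteoclast markers, each minus its own mean over the 10 libraries (colour scale, red above the mean, blue below, with colours saturated beyond 2.5), in libraries ordered by group. Ctsk, Acp5, Mmp9, Dcstamp and Oscar are above their means in both Lipo-MK1775+NLG libraries and both controls; Itgb3 is below its mean in Lipo-MK1775+NLG replicate 1, and Tnfrsf11a is below its mean in all 4 of these libraries.

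Ctsd (chr7:141929648-141941775) encodes the main aspartic peptidase of the lysosome. It had 681 and 622 nuclear TPM in Free-MK1775, 686 and 367 in Free-MK1775+NLG919, 450.1 and 453 in Lipo-MK1775, 732 and 617 in Lipo-MK1775+NLG, against 635 and 631 in the negative control. The Lipo-MK1775 pair lay below both controls, with a log2 change of -0.49 (SE 0.28), and the other groups overlapped with the control pair. The sign in Lipo-MK1775 turned under median-of-ratios scaling, where the change was 0.40 (SE 0.17).

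Ctsa (chr2:164674793-164682952) encodes the protective protein, a carboxypeptidase that also keeps beta-galactosidase and neuraminidase stable in the lysosome. Its 16 named transcripts had 168 and 109 nuclear TPM in Free-MK1775, 158 and 39.0 in Free-MK1775+NLG919, 224 and 221 in Lipo-MK1775, 114 and 200.1 in Lipo-MK1775+NLG, against 150.1 and 206 in the negative control. The Lipo-MK1775 pair lay above both controls. That order was not seen when the 1 assembled transcript of the locus was added: the whole locus had 231 and 209.6 nuclear TPM in Free-MK1775, 228 and 221 in Free-MK1775+NLG919, 224 and 221 in Lipo-MK1775, 241 and 236 in Lipo-MK1775+NLG, against 223 and 223 in the negative control, a span of 1.15-fold from lowest to highest against 5.75-fold for the named sum. The assembled transcript, of 16 exons, held 82.4% of the locus in Free-MK1775+NLG919 replicate 2 and was at 0 in both Lipo-MK1775 libraries. The whole-locus log2 changes lay between -0.02 (SE 0.19) for Free-MK1775 and 0.10 (SE 0.19) for Lipo-MK1775+NLG. Within the named sum, ENSMUST00000103093 and ENSMUST00000103092 held most of the signal in turn; the first had 148 and 9.62 nuclear TPM in the Free-MK1775 pair, the second 10.0 and 79.2. Pltp and Neurl2 overlap Ctsa on the other strand, at up to 58.3 FPKM.

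**Figure D3:**
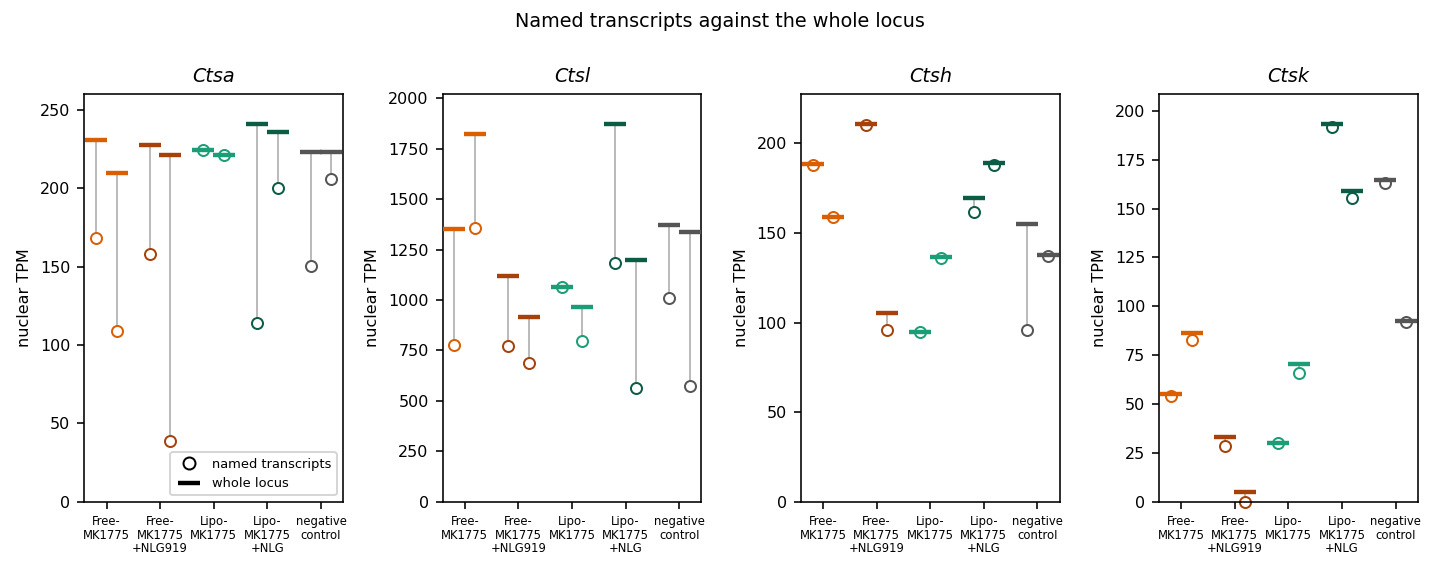
Nuclear TPM of Ctsa, Ctsl, Ctsh and Ctsk in each library (vertical axis, linear, from 0), as the sum of named transcripts (open circles) and of the whole locus with assembled transcripts added (bars), joined by grey lines and ordered by group and replicate. The Ctsa bars lie between 209.6 and 240.7 nuclear TPM in all 10 libraries while the circles reach down to 39.0.

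Counted over the 9 genes, limma called 0 in each of the 4 comparisons. The share of all 15469 tested genes that was called was 0.0129% in Free-MK1775, 0.0194% in Free-MK1775+NLG919, 21.0% in Lipo-MK1775 and 0.00646% in Lipo-MK1775+NLG. At an unadjusted p under 0.05 there were 0, 1 (Ctsk), 0 and 0 members in that order, where 1.96%, 21.7%, 43.5% and 2.52% of all genes passed. Under median-of-ratios scaling there were 1, 3, 6 and 0, where 2.28%, 20.7%, 29.5% and 3.41% of all genes passed. With 2 libraries against 2, an exact permutation test of a single value cannot go below p = 0.333. As these levels were in view when the members were taken, nothing is read from the counts.

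In Free-MK1775, 1 of the 9 genes (Ctsh) was higher and 1 (Ctsk) lower without overlap, where 13.1% and 20.2% of all genes were. The median log2 change of the 9 was 0.14, against -0.06 for all genes. In Free-MK1775+NLG919, 0 were higher and 1 (Ctsk) was lower without overlap (all genes, 9.87% and 40.7%), with medians of -0.17 and -0.44. Under median-of-ratios scaling 4 (Ctsb, Ctsd, Ctsh and Ctsz) were higher without overlap, where 25.8% of all genes were, and the medians were 0.35 and -0.01. Ctsb, Ctsc, Ctsd, Ctsl and Ctss had the opposite sign there to that on the nuclear TPM scale. The libraries of this group went opposite ways: replicate 1 was above both controls for 6 members and below for 1, and replicate 2 was above them for 0 and below for 8. For all genes, replicate 1 was above both controls in 31.7% and below both in 45.9%, and replicate 2 in 16.4% and 72.5%.

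In Lipo-MK1775, 2 members (Ctsa and Ctss) were higher and 4 (Ctsb, Ctsc, Ctsd and Ctsk) lower without overlap, where 8.4% and 67.2% of all genes were. The log2 change was above 0 for 3 members (Ctsa, Ctsl and Ctss) and for 17.1% of all genes. The median of the 9 was -0.12, against -0.78 for all genes, and 8 of the 9 changes, all but that of Ctsk, lay above that median. On the whole locus 1 member (Ctss) was higher and 6 lower without overlap, with Ctsh and Ctsl among the lower. There 8 of the 9 changes were below 0, though Ctsa was level with the control, and the medians were -0.36 and -0.84. The shares of all genes without overlap on that sum are not given here. In Lipo-MK1775+NLG, 4 (Ctsb, Ctsc, Ctsh and Ctsz) were higher and 0 lower without overlap, where 20.7% and 23.4% of all genes were. The medians were 0.23 and -0.02.

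The choice of scale mattered most in Lipo-MK1775. Relative to the median of all genes, Ctss stood at 1.12, Ctsa at 1.11 and Ctsl at 1.05 log2 units above it on the nuclear TPM scale, and Ctsk at 0.66 below. On the whole locus Ctss stood at 1.15, Ctsa at 0.84 and Ctsl at 0.42 above it, and Ctsk at 0.56 below. Under median-of-ratios scaling, where the median of all genes was -0.06, the median of the 9 was 0.76. There 8 members lay above both controls, where 30.3% of all genes did, and Ctsb, Ctsc, Ctsd, Ctsh and Ctsz had the opposite sign to that on the nuclear TPM scale. Under the deposited FPKM, with mitochondrial transcripts in the total, all 9 changes were below 0, with a median of -0.58 against -1.01 for all genes, of which 7.6% were above 0.

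**Figure D4:**
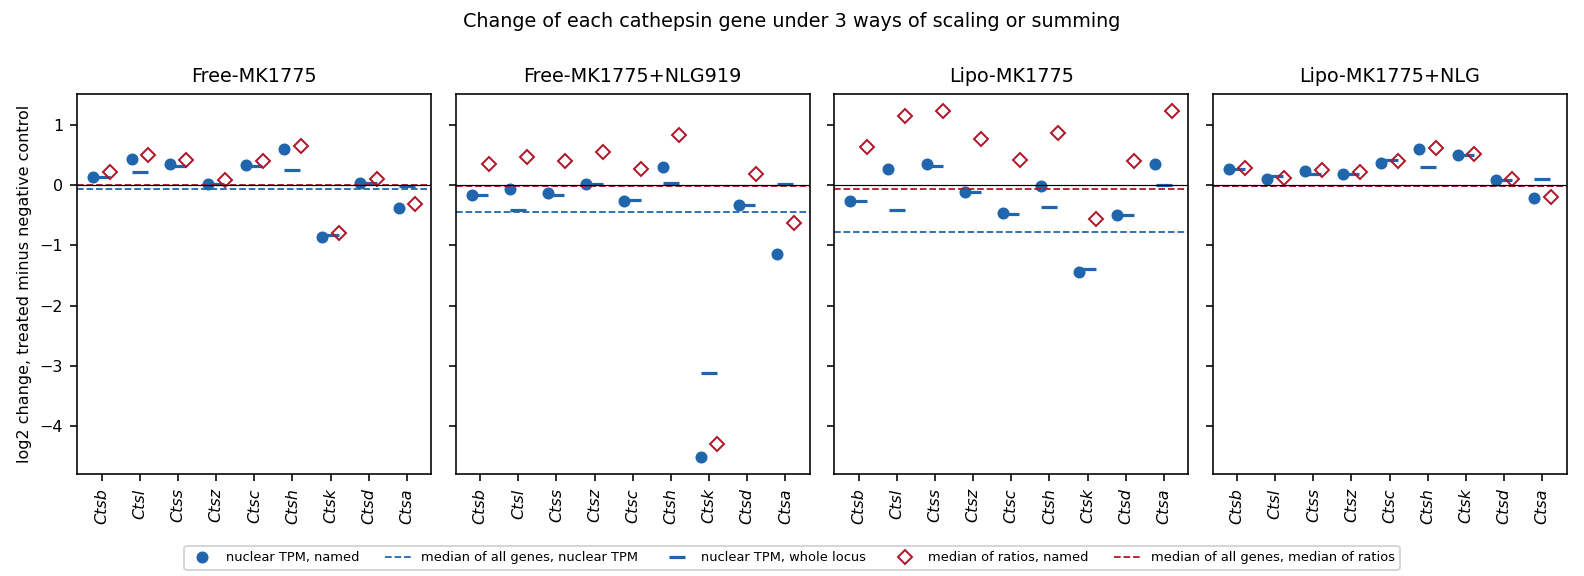
log2 change of each cathepsin gene, treated minus negative control, in the 4 comparisons (panels); filled circles are named transcripts and bars the whole locus in nuclear TPM, open diamonds named transcripts under median-of-ratios scaling, and dashed lines the median of all genes in blue for nuclear TPM and red for median of ratios. In Lipo-MK1775 the diamonds lie above 0 for all members but Ctsk, while 6 of the 9 circles lie below 0; in Lipo-MK1775+NLG the 3 symbols of a gene lie close together.

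Of 14 other cathepsin genes in the table, 5 passed the filter on low values. Ctso, a cysteine cathepsin, had 25.4 and 26.4 nuclear TPM in Free-MK1775, 27.6 and 10.3 in Free-MK1775+NLG919, 9.40 and 13.5 in Lipo-MK1775, 25.7 and 23.9 in Lipo-MK1775+NLG, against 23.3 and 26.6 in the negative control. Its Lipo-MK1775 pair lay below both controls, with a log2 change of -1.07 (SE 0.42, limma adjusted p = 0.0893). Ctse, an aspartic cathepsin, ran from 4.07 to 8.89 nuclear TPM over the 10 libraries, and Ctsf, a cysteine cathepsin, from 0.47 to 6.12. Ctsw, a cysteine cathepsin of cytotoxic lymphocytes, ran from 0.889 to 4.32 and Ctsg, the granule serine protease of neutrophils, from 0 to 1.48. None of the 5 was called in any comparison by limma. The rodent placental cathepsins Ctsj, Ctsm, Ctsq, Ctsr, Cts3, Cts6, Cts7 and Cts8 were listed at 0 in every library.

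Of 13 cathepsin inhibitor genes, 10 were tested and 0 called in each comparison. The highest was Cst3, which encodes cystatin C, the secreted inhibitor of cysteine cathepsins, with 1360 and 935 nuclear TPM in Free-MK1775, 1310 and 857 in Free-MK1775+NLG919, 613 and 783 in Lipo-MK1775, 1090 and 1100 in Lipo-MK1775+NLG, against 1060 and 1030 in the negative control. Cstb, which encodes the cytosolic inhibitor cystatin B, had 602 and 669 nuclear TPM in Free-MK1775, 559 and 510.0 in Free-MK1775+NLG919, 428 and 432 in Lipo-MK1775, 602 and 573 in Lipo-MK1775+NLG, against 569 and 642 in the negative control. The Lipo-MK1775 libraries were the lowest pair for each and did not overlap with the controls. The median log2 change of the 10 in Lipo-MK1775 was -0.57, against -0.78 for all genes.

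In Lipo-MK1775, 18.2% (2 of 11) of genes for sorting and activation of lysosomal enzymes were called lower, against 19.4% of all genes. For genes of the lysosomal membrane and its acidification the share was 6.25% (1 of 16), and for other lysosomal hydrolases 17.2% (5 of 29). The lists are small and none of the 3 shares was tested against 19.4%, so no difference is read from them. Without overlap 9, 12 and 24 of these genes were lower there, where 67.2% of all genes were. Those higher without overlap were 0, 0 and 1, where 8.4% of all genes were. In the other 3 comparisons 0 were called; the difference between comparisons was not tested. Of 11 genes for sorting and activation, 0 rose and 2 fell in Lipo-MK1775. Igf2r, the gene of the large mannose 6-phosphate receptor, had 22.7 and 21.7 nuclear TPM in Lipo-MK1775, against 107 and 103 in the negative control, a log2 change of -2.19 (SE 0.55, limma adjusted p = 0.034). Gnptg, a subunit of the enzyme that makes the mannose 6-phosphate tag, had 11.4 and 18.1 nuclear TPM in Lipo-MK1775, against 33.6 and 34.9 in the negative control, a log2 change of -1.20 (SE 0.34, limma adjusted p = 0.0423). Of 16 genes for the lysosomal membrane and its acidification, 0 rose and 1 fell. This was Tcirg1, which encodes a proton pump subunit also used by osteoclasts, with 59.0 and 60.6 nuclear TPM in Lipo-MK1775, against 110.0 and 114 in the negative control, a log2 change of -0.90 (SE 0.22, limma adjusted p = 0.0329).

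Of 29 tested genes of other lysosomal hydrolases, 0 rose and 5 fell in Lipo-MK1775: Arsa, Gaa, Ppt1, Smpd1 and Tpp1. Arsa, which encodes arylsulfatase A, had 27.5 and 27.3 nuclear TPM in Lipo-MK1775, against 81.9 and 70.2 in the negative control, a log2 change of -1.43 (SE 0.37, limma adjusted p = 0.0365). Tpp1, the gene of a tripeptidyl peptidase, had a change of -0.94 (SE 0.26, limma adjusted p = 0.0391), Ppt1, that of a thioesterase, -1.49 (SE 0.41, limma adjusted p = 0.0406), and Gaa, that of the acid glucosidase, -1.08 (SE 0.30, limma adjusted p = 0.0413). The list's median was -0.73, against -0.78 for all genes. Each of these 8 sorting, acidification and hydrolase genes was called in 2 of the 10 fits that left out 1 library, those without either Free-MK1775+NLG919 library. None was called under median-of-ratios scaling, where their log2 changes lay between -1.33 for Igf2r and -0.02 for Tcirg1. Pla2g15, a lysosomal hydrolase gene, and Tfeb rose in Lipo-MK1775 under that scaling, by 1.15 and 1.46 log2 units, with limma adjusted p of 0.0424 and 0.0317.

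The 4 MiT/TFE genes were all tested and 0 were called on the nuclear TPM scale. Tfe3 had 39.7 and 31.2 nuclear TPM in Free-MK1775, 40.2 and 41.9 in Free-MK1775+NLG919, 70.6 and 38.2 in Lipo-MK1775, 42.9 and 41.7 in Lipo-MK1775+NLG, against 36.8 and 36.2 in the negative control. Tfeb had 19.2 and 16.9 nuclear TPM in Free-MK1775, 24.4 and 20.4 in Free-MK1775+NLG919, 26.7 and 26.0 in Lipo-MK1775, 18.2 and 19.6 in Lipo-MK1775+NLG, against 16.5 and 17.3 in the negative control. For either gene the Free-MK1775+NLG919, Lipo-MK1775 and Lipo-MK1775+NLG pairs were above both controls, where 9.87%, 8.4% and 20.7% of all genes were. In Lipo-MK1775 the log2 changes were 0.50 (SE 0.31, limma adjusted p = 0.233) and 0.61 (SE 0.26, limma adjusted p = 0.107). That of Tfe3 rests mostly on replicate 1. Mitf was below both controls (10.7 and 10.3) in every treated library, at 3.21 to 9.87 nuclear TPM. In the 4 comparisons 20.2% to 67.2% of all genes were lower without overlap. Tfec overlapped in each.

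For each member the genes with the most similar course over the 10 libraries were sought among 9624 genes, by the mean absolute difference of log2(nuclear TPM + 1) centred on each gene's own mean. As the libraries share depth, scale and the 3 high mitochondrial shares, this is a description. Nearest to Ctsc were Pld4, at a mean difference of 0.102 log2 units, Psap (0.115) and Gusb (0.12), of which Psap and Gusb are lysosomal genes. Nearest to Ctss were Pla2g15 (0.148), Bcl2a1d (0.153) and Rftn1 (0.154), and nearest to Ctsh were Ms4a6d (0.094), Cd300c2 (0.109) and Cep20 (0.112). Ctsb was closest to Tk2 (0.047), Rnf7 (0.05) and Gpx1 (0.061), Ctsd to Egln2 (0.05), Cct5 (0.05) and Ywhab (0.056), and Ctsz to Psmb4 (0.054), Cct7 (0.055) and Atp6v1e1 (0.058). The nearest genes of Ctsl were farther off (Hook2, 0.198; Mpp6, 0.215; Ccm2, 0.228), as were those of Ctsa (Il3ra, 0.237; Mcoln2, 0.242; Napsa, 0.253) and, most of all, those of Ctsk (Tns3, 0.57; H6pd, 0.657; Tbl1x, 0.664). These 3 genes were at 0 to 0.00101 nuclear TPM in Free-MK1775+NLG919 replicate 2, the library in which Ctsk is listed at 0. For the whole Ctsk locus the nearest were Fgfbp1 (0.495), Mreg (0.514) and Cdh1 (0.514). For the whole Ctsa locus the nearest were Aimp1 (0.048), Eloc (0.056) and Rpl7a (0.058).

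Over the 7 libraries of low mitochondrial share alone, a search added after the values were seen, the genes nearest to Ctsk were Atp6v0d2 (0.174), Thrap3 (0.207) and Fgfbp1 (0.254). Atp6v0d2, which encodes a proton pump subunit of osteoclasts and macrophages, had 3.85 and 5.51 nuclear TPM in Free-MK1775, 2.36 and 2.92 in Free-MK1775+NLG919, 13.5 and 11.6 in Lipo-MK1775, 14.3 and 9.52 in Lipo-MK1775+NLG, against 13.3 and 7.97 in the negative control. In the Lipo-MK1775 pair Atp6v0d2 was just above the higher control library in replicate 1 and between the controls in replicate 2, while Ctsk lay below both controls.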

How the data were processed

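RNA of 10 libraries was measured by sequencing; the labels name an RNeasy kit, a NEBNext Ultra kit and total RNA. The deposited values are FPKM per transcript, and per the submitters' processing notes FastQC, Trim Galore, HISAT2 and StringTie were used on build GRCm39, with no versions given. Of 161762 transcripts, 21051 carried no symbol, and 14868 of these assembled transcripts could be added to the symbol of their locus. FPKM was summed per gene symbol over named transcripts and divided by the summed FPKM of all transcripts off the mitochondrial genome, times 1000000. StringTie shares reads among overlapping transcripts by estimation, so named and assembled sums are both given. Read counts were not used here; absolute depth is unknown, and intervals from counts could not be given. Reads of overlapping genes on either strand cannot be told apart.

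Genes at 1 nuclear TPM or more in at least 2 libraries were tested with limma 3.58.1 in R 4.3.3 on log2(nuclear TPM + 1), which understates changes of low genes. A single fit with a mean per group over all 10 libraries and a variance trend gave 4 comparisons with the negative control. The fit pools the spread of all groups. Tests were two-sided. Calls required p under 0.05 after Benjamini-Hochberg adjustment across the whole tested table. In simulated data 100 of 15469 genes were changed by 2 log2 units and another 100 by 1 log2 unit at once. In the comparisons of Free-MK1775, Free-MK1775+NLG919, Lipo-MK1775 and Lipo-MK1775+NLG, the fit called 40%, 35%, 44% and 43% of the former. Of the latter it called 2%, 0%, 2% and 0%. The simulated noise was independent and normal, with the same spread for a gene in every group. It held no libraries of high mitochondrial share and no shifts of a whole library. These rates therefore do not carry over to the calls made here.

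The members and gene lists were chosen with earlier results of these data known. All 9 members are named. Of each list every called gene is named. Where more were called it is the 4 with the smallest p, and where none was, the 2 highest. The genes called in the osteoclast list, and Tnfrsf11a, Pla2g15, Tfeb, Tfec, Mitf and Atp6v0d2, were named after their values were seen. A further gene of the lists is counted and not reported here by name. Alternatives were the deposited FPKM, median-of-ratios scaling, a pseudocount of 0.1, no filter, assembled transcripts added, a replicate block, the 3 libraries of high mitochondrial share left out, and each library left out. Promoters came from RefSeq on GRCm38.p6, searched with Python 3.11.15.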

Additional observations from a re-analysis of the deposited data

Results flagged for a closer look

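Ctsk was singled out because the addition of NLG919 went with opposite directions in the MK1775 forms. Both Free-MK1775+NLG919 libraries lay below both Free-MK1775 libraries, a log2 difference of -3.65 on named transcripts and -2.29 on the whole locus. Both Lipo-MK1775+NLG libraries lay above both Lipo-MK1775 libraries, by 1.93 and 1.91. The gap between the forms was 5.58 log2 units on named transcripts and 4.19 on the whole locus. The Free value depends on the pseudocount of 1, because Free-MK1775+NLG919 replicate 2 is listed at 0 for the named transcript. Without that library, left out after the values were seen, the Free difference was -1.21 on named transcripts and -1.03 on the whole locus, and the gap 3.14 and 2.94. It was not tested, and it rests in part on the 3 libraries of high mitochondrial share. On named transcripts the median log2 change of all genes went the same ways. With NLG919 that median was -0.44 against -0.06 in the Free form and -0.02 against -0.78 in the Lipo form.

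Ctsl met the same condition on the whole locus and not on named transcripts. With NLG919 its log2 difference was -0.63 in the Free form and 0.57 in the Lipo form, a gap of 1.20; the Lipo form was lower than the Free form without NLG919 (-0.63) and higher with it (0.57), again a gap of 1.20. On the whole locus the median log2 change of all genes was -0.07 in Free-MK1775 and -0.47 in Free-MK1775+NLG919. It was -0.84 in Lipo-MK1775 and -0.03 in Lipo-MK1775+NLG. So the median of all genes also stood lower with NLG919 in the Free form and higher with it in the Lipo form. These Ctsl differences also rest in part on the 3 libraries of high mitochondrial share, and they were not tested either.

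Assembled transcripts that the comparisons of named transcripts do not use stood at 1 FPKM or more in both libraries of a treated group and above both controls at 4 members. At Ctsa this was a transcript of 16 exons with 25.8 FPKM in the lower library of the Free-MK1775+NLG919 pair, against 22.7 FPKM in the higher control; in nuclear TPM these were 70.1 and 72.7, so that it was not above both controls on that scale. At Ctsk it was the 9-exon transcript with 1.55 FPKM in the lower library of that pair. At Ctsl it was a 10-exon transcript with 119 FPKM in the lower Lipo-MK1775+NLG library, against 103 FPKM in the higher control. At Ctsc it was a 4-exon transcript with 7.13 FPKM in the lower Lipo-MK1775+NLG library, against 4.18 FPKM in the higher control.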

How the results depend on the processing

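Cathepsins called stayed at 0 of 9 in each comparison under every alternative that kept all libraries. Leaving out 1 library at a time gave 0 to 6 in Free-MK1775+NLG919 and 0 to 2 in Lipo-MK1775. The 6 (Ctsa, Ctsb, Ctsc, Ctsd, Ctsk and Ctss, all lower) came without Free-MK1775+NLG919 replicate 1, when the library of high mitochondrial share stood alone and was assumed to vary like the other groups. The 2 (Ctsd and Ctsk, lower) came without either library of that group, that is from the pooled spread. For all genes, the counts in the comparisons of Free-MK1775, Free-MK1775+NLG919, Lipo-MK1775 and Lipo-MK1775+NLG were 2, 3, 3251 and 1 as reported; 1, 7, 5955 and 1 with the deposited FPKM; 2, 11, 824 and 0 with median-of-ratios scaling; 1, 2, 3080 and 1 with a pseudocount of 0.1; 20, 27, 822 and 20 with no filter; 1, 15, 6520 and 0 with assembled transcripts added. Without the 3 libraries of high mitochondrial share they were 1, 4 and 0 in the 3 comparisons that remained. Leave-outs gave 1 to 2, 1 to 6418, 1 to 7597 and 0 to 2. In Lipo-MK1775 the split as reported was 251 higher and 3000 lower, against 440 and 384 under median-of-ratios scaling. Genes of the pathway lists called in Lipo-MK1775 were 8 as reported, 26 with the deposited FPKM, 3 with median-of-ratios scaling (all higher), 1 with no filter, 19 with assembled transcripts added and 0 to 38 in leave-outs; in Free-MK1775+NLG919 leave-outs gave 0 to 41. The causes were not tested.

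Samples share only a replicate number: the correlation of same-numbered deviations between groups ran from -0.204 to 0.0654. With a replicate block the counts of all genes were 1, 2, 2115 and 0 in the same order, that of the pathway lists in Lipo-MK1775 was 3, and the members called stayed at 0. Of 603 alternative values of the 36 member changes, 554 moved by less than the gene's standard deviation from limma, pooled over all groups, and 49 by more. Another sign was seen in 45, 10 of those under median-of-ratios scaling. Many of the 603 could not move, because a change uses only the means of its treated group and the control. Leaving out a library of another group, the replicate block and dropping the filter left it as it was. The 554 is therefore not a measure of stability. The Ctsk sign held in all of its values. With 2 libraries a group and depth known only in relative terms, the precision of a single change is limited.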
